A study of Mus musculus with 13 samples.

Results

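Semaphorins are guidance proteins that cells secrete or display, plexins are their main receptors, and neuropilins are co-receptors of the secreted ones. Of this system 10 genes were examined: the ligands Sema3a, Sema3c, Sema3d, Sema3e and Sema5a, the neuropilins Nrp1 and Nrp2, and the plexins Plxna2, Plxna4 and Plxnd1. They were taken by matching the gene IDs of the count table to mouse symbols and picking these names, 10 of 55487 gene IDs. The table holds 31 semaphorin, plexin and neuropilin genes that were matched by symbol, so another 21 gave the family context.

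The study sequenced RNA of sinoatrial node pacemaker cells (PC), the cells that start each heartbeat, and of right atrial cardiomyocytes (RACM), the working muscle beside the node. Both cell types were flow-sorted from mice labelled neonatal whose genotype is given as Hcn4-GFP/Myh6-mCherry, that is, reporters named for a pacemaker channel gene and for a heart muscle myosin gene, so both groups carried both reporters, and no treatment is named. A replicate pooled the junction of node and right atrium from 8 to 10 hearts, and each cell type has 3 RNA libraries, numbered p0, p2 and p4 in the titles, which do not say what the number stands for. The chromatin accessibility samples of the series were not analysed here.

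Levels are given in CPM, counts scaled to library size, and values of 3 libraries always stand in the order p0, p2, p4. Total counts were from 18371816 to 22290996 in the PC libraries and from 14141151 to 19555932 in the RACM libraries. The labels held against marker genes: 6 of 6 pacemaker markers were higher and 5 of 5 atrial muscle markers lower in PC, while 0 of 5 general heart muscle markers passed the edgeR test (3 were higher in PC at an unadjusted p below 0.05, 3 by DESeq2 and 2 by limma-voom). Hcn4, one of the 6 pacemaker markers, named a reporter used in the sort, so it checks the labels and is no finding. Markers of other cells were not even. Summed levels of 8 fibroblast genes were 845, 958 and 2170 CPM in PC, against 1596, 3679 and 10699 CPM in RACM, and those of 8 macrophage genes were 21.6, 8.35 and 50.9 CPM in PC against 136, 383 and 646 CPM in RACM. RACM p4 thus stood apart with the highest sums of both lists. In RNA of sorted pools, fewer cells of a type and less RNA per cell cannot be told apart.

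As background, class 3 semaphorins are secreted and mostly bind a neuropilin, which pairs with a plexin that carries the signal into the cell, where it acts on small GTPases and the cytoskeleton. Classes 4 to 7 are held at the membrane and mostly bind plexins directly. In the developing heart the system is known for dividing the outflow tract, patterning vessels and steering the autonomic nerves that reach the nodes and the muscle. Neuropilins also bind vascular endothelial growth factors (VEGF), so they serve vessel growth as well.

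Within this system, PC carried more of the secreted ligand Sema3c and of the receptor Plxna2, and less of the membrane-held ligand Sema5a, than RACM. Sema3c differed by 7.09-fold, Plxna2 by 2.02-fold, and Sema5a was 1.97-fold higher in RACM. Of the 10 genes, 9 had enough counts to be tested and 1, Sema3e, did not. Differences are given as log2 fold changes of PC over RACM with their standard error (SE), from edgeR's quasi-likelihood test with Benjamini-Hochberg adjustment over all 18015 genes tested, and a gene was called at an adjusted p below 0.05. By that rule 2 of the 9 were higher in PC, 1 was lower and 6 did not pass. Over all genes tested, 7.27% were called, 3.69% as higher and 3.57% as lower in PC. The median log2 fold change of the 9 was -0.34, against 0.0064 over all genes tested.

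For 5 of the 9, no PC library overlapped the range of RACM, namely Sema3c, Nrp1 and Plxna2, which were higher in every PC library, and Sema5a and Plxnd1, which were higher in every RACM library. Over all genes tested, 26.9% had libraries that did not overlap. The fit reported here does not pair libraries. Deviations from the cell type means correlated weakly within each p number, so a paired fit was run as an alternative. With the number as a replicate block, 11.6% of all genes were called, and Nrp1 and Plxnd1 passed as well, so that 3 of the 9 were higher and 2 lower in PC.

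**Figure D1:**
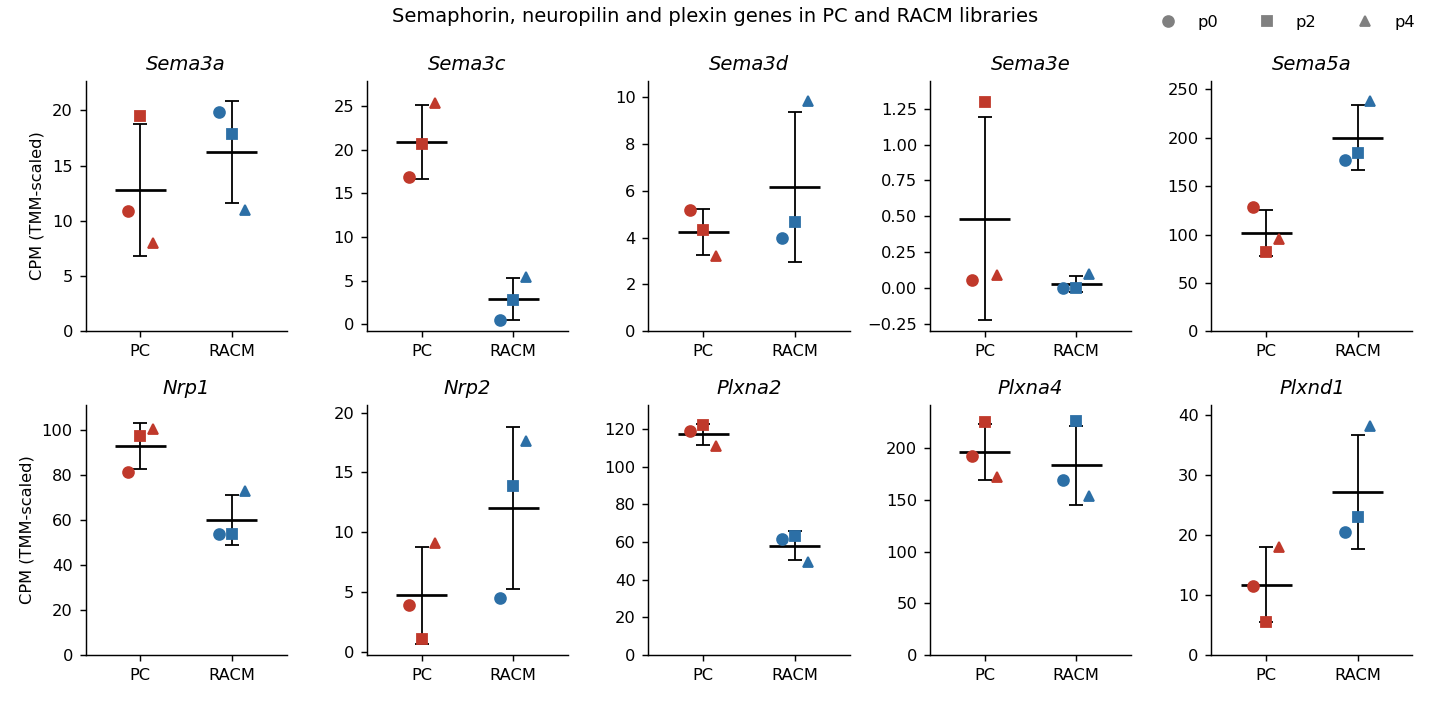
Levels of the 10 genes in each library, in CPM scaled by the trimmed mean of M values (TMM). Each panel has its own axis, points are libraries (circle p0, square p2, triangle p4), the line is the mean and the bar the SD of 3 libraries, and the PC and RACM points are apart for Sema3c, Sema5a, Nrp1, Plxna2 and Plxnd1.

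The sequence before the gene start is shown for Sema5a, the ligand that was lower in PC, and for the receptors Nrp1 and Plxnd1, whose libraries did not overlap. The windows come from RefSeq in build GRCm38.p6, read along the gene's strand, and are chr15:32244563-32244809 (plus strand) for Sema5a, chr8:128358823-128359072 (plus strand) for Nrp1 and chr6:115995006-115995255 (minus strand) for Plxnd1. Capitals mark matches on either strand to any of 3 short motifs, GATAA (a core of GATA factor sites), GGTGTG (a core of T-box sites) and TAAT (a core of homeobox sites), of which GATAA and TAAT can share letters.
Sema5a: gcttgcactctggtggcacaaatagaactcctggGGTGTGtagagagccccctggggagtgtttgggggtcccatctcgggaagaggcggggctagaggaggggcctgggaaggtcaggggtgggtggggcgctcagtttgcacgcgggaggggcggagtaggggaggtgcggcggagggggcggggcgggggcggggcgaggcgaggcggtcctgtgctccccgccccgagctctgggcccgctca
Nrp1: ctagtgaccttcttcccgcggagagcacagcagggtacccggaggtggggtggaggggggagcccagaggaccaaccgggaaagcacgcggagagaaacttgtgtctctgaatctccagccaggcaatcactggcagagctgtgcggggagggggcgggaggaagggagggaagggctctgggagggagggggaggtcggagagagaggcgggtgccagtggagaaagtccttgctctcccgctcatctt
Plxnd1: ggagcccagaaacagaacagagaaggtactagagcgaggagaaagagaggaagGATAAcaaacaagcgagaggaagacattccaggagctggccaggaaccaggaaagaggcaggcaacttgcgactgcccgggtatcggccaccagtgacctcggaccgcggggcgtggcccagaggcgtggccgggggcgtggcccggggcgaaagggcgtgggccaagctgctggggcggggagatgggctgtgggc

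Sema5a held 1 GGTGTG, Plxnd1 held 1 GATAA and Nrp1 held none of the 3. Among 27025 mouse promoters of 250 bases, 23.0% held GATAA, 16.2% held GGTGTG and 55.3% held TAAT. The guanine and cytosine share was 72.0% for the full 250-base window of Sema5a, 64.4% for Nrp1 and 64.8% for Plxnd1, against a median of 52% over those promoters. A match is a description of letters, and no match says only that they are not in the window. The RefSeq start of Nrp1 lies 469 bases inside the gene of the count table, so its window falls within that gene, outside its exons. The Sema5a window is shown up to the first base of the Sema5a exon. Those of Sema3c and Plxna2 lie within exons of the count table's genes and are not shown. Of the members 9 had an entry, and Plxna4 did not.

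Sema3c is a secreted ligand that is needed in the mouse for division of the cardiac outflow tract and signals through neuropilins with plexins A2, A4 and D1. It lies on mm10 chr5:17574281-17730268 (ENSMUSG00000028780, plus strand). Its level was 16.9, 20.7 and 25.3 CPM in PC, against 0.551, 2.75 and 5.42 CPM in RACM. The PC libraries lay well above all RACM libraries, and RACM p0 rested on only 8 counts. Means were 20.9 ± 4.24 CPM in PC and 2.91 ± 2.44 CPM in RACM (SD, n = 3 each), and the log2 fold change was 2.83 ± 0.62 (edgeR adjusted p = 0.0285), with a 95% interval from 1.42 to 4.23. The direction held with every library left out, but the call was lost without PC p0, PC p2, PC p4 or RACM p2 (edgeR adjusted p = 0.0755, 0.066, 0.0707 and 0.113). Without RACM p4 the log2 fold change was 3.64, and it was called (edgeR adjusted p = 0.00954). Within RACM, Sema3c was highest in p4, the library with the highest fibroblast and macrophage sums. Across cell types the macrophage sums were lower in every PC library, unlike Sema3c. The fibroblast sums were lower in PC on average, with overlap. Summed levels of 8 smooth muscle and pericyte markers were 662, 423 and 699 CPM in PC, against 202, 267 and 600 CPM in RACM, with overlap. Within RACM they too were highest in p4, and the smooth muscle gene Acta2 made up most of the PC sums. The part of other cells in the Sema3c level was not tested.

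Sema3a repels sympathetic axons and is known for setting the density of cardiac nerves in the mouse. The gene lies on chr5:13125414-13602565 (ENSMUSG00000028883, plus strand). It stood at 10.9, 19.5 and 8.01 CPM in PC, against 19.8, 17.8 and 10.99 CPM in RACM. The groups overlapped, and p4 was the lowest library in both cell types. The log2 fold change was -0.34 ± 0.37 (edgeR adjusted p = 0.680), with a 95% interval from -1.18 to 0.50.

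Sema3d, known for guiding endothelial cells and the pulmonary veins, lies on chr5:12383385-12588948 (ENSMUSG00000040254, plus strand). It had 5.17, 4.35 and 3.21 CPM in PC, against 4.0, 4.66 and 9.84 CPM in RACM. All libraries but RACM p4 lay close together, and the log2 fold change of -0.54 ± 0.46 did not pass (edgeR adjusted p = 0.579, 95% interval from -1.59 to 0.50). Without both p4 libraries it was 0.11.

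Sema3e, which binds plexin D1 without a neuropilin and is known from vessel patterning, was near the limit of detection (chr5:14025276-14256689, ENSMUSG00000063531, plus strand). It had 1, 23 and 2 counts in PC, against 0, 0 and 2 counts in RACM. PC p2 alone held 23 of the 26 PC counts, so the ratio of 11.9 between the cell types (95% counting interval from 2.98 to 103, for counting error only) rests on 1 library and was not tested.

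Sema5a, a membrane-held semaphorin with thrombospondin repeats that can guide axons by attraction or repulsion, had the highest level per kilobase of exon of the 5 ligands in both cell types. It lies on chr15:32244810-32696341 (ENSMUSG00000022231, plus strand), with the window printed above before its start. Levels were 128, 82.0 and 94.9 CPM in PC, against 178, 184 and 238 CPM in RACM. Every PC library was below every RACM library. Means were 102 ± 23.8 CPM in PC and 200 ± 33.3 CPM in RACM (SD, n = 3 each), and the log2 fold change was -0.98 ± 0.21 (edgeR adjusted p = 0.0247). The call was lost without either p2 library (edgeR adjusted p = 0.085 for PC p2 and 0.0751 for RACM p2), without either p4 library (0.079 for PC p4 and 0.0723 for RACM p4) and without both p4 libraries (-0.81, edgeR adjusted p = 0.115). Like Sema5a, the macrophage sums were lower in every PC library and highest in RACM p4. The fibroblast sums were also highest in RACM p4, but they overlapped, with PC p4 above RACM p0 (2170 against 1596 CPM). The part of either in the Sema5a difference was not tested. Snhg18, a noncoding RNA gene whose exons reach into the Sema5a window and which was chosen for that position, averaged 29.6 CPM in PC and 50.2 CPM in RACM. Its log2 fold change of -0.76 ± 0.23 did not pass (edgeR adjusted p = 0.0920).

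**Figure D2:**
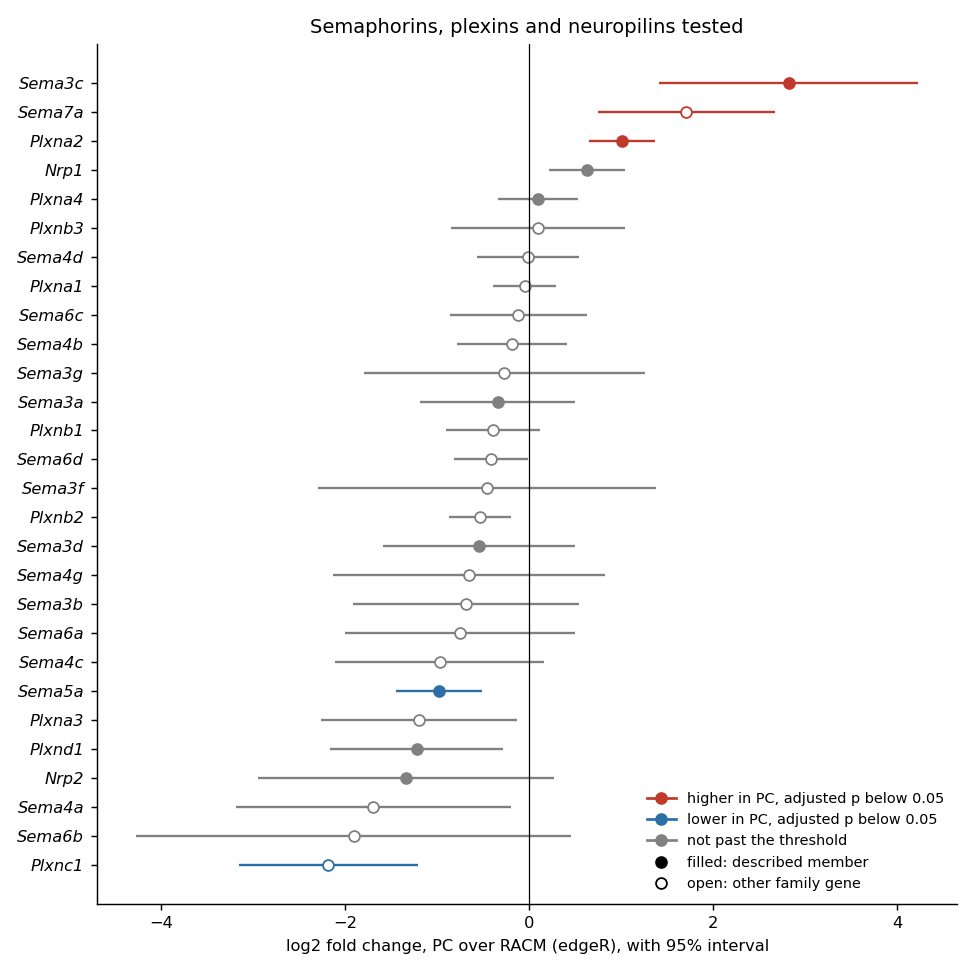
Log2 fold changes of PC over RACM with 95% intervals for the 28 semaphorin, plexin and neuropilin genes tested, ordered by value. Filled points are the members and open points other family genes; Sema3c, Sema7a and Plxna2 passed as higher in PC (red) and Sema5a and Plxnc1 as lower (blue).

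Among the receptors, Plxna2 was higher in PC. Plexin A2 transduces class 3 signals together with neuropilins and is known from cardiac neural crest cells, which enter the outflow tract. The gene lies on chr1:194618218-194816869 (ENSMUSG00000026640, plus strand). It had 119, 122 and 111 CPM in PC, against 61.7, 63.1 and 49.3 CPM in RACM. The libraries of each cell type lay close together and far from the other. Means were 117 ± 5.67 CPM in PC and 58.0 ± 7.60 CPM in RACM (SD, n = 3 each), and the log2 fold change was 1.01 ± 0.16 (edgeR adjusted p = 0.00725). It was called under all 15 alternative settings, with log2 fold changes from 0.91 to 1.08.

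Plxna4, the plexin through which Sema3a acts on sympathetic neurons, lies on chr6:32144268-32588192 (ENSMUSG00000029765, minus strand). It had 192, 225 and 172 CPM in PC, against 169, 226 and 154 CPM in RACM. The groups overlapped, and in both the order of libraries was p2, p0 and p4 from high to low. The log2 fold change was 0.10 ± 0.19 (edgeR adjusted p = 0.829), with a 95% interval from -0.33 to 0.53, and it was -0.01 without RACM p4. Of its exon bases 0.780% were shared with Plxna4os3 on the other strand, and reads were counted without regard to strand.

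Plxnd1 encodes a plexin best known from endothelium, where it is the receptor of Sema3e and, with neuropilins, of other class 3 ligands. It lies on chr6:115954811-115995005 (ENSMUSG00000030123, minus strand), directly after the Plxnd1 window printed above. It had 11.5, 5.53 and 18.01 CPM in PC, against 20.5, 23.0 and 38.1 CPM in RACM. The libraries did not overlap, though PC p4 came close to RACM p0. Means were 11.7 ± 6.24 CPM in PC and 27.2 ± 9.50 CPM in RACM (SD, n = 3 each). The log2 fold change of -1.22 ± 0.42 did not pass (edgeR adjusted p = 0.124), and with the replicate block it was -1.31 (edgeR adjusted p = 0.0211). Without RACM p4 it was -0.90 (edgeR adjusted p = 0.365). Summed levels of 9 endothelial and endocardial markers were 60.7, 37.4 and 106 CPM in PC, against 147, 131 and 208 CPM in RACM, and 1 of the 9 genes was called, as lower in PC. Those sums too were lower in every PC library, with p4 highest in both cell types and PC p2 lowest of all, as for Plxnd1. Unlike Plxnd1, they were lower in RACM p2 than in RACM p0. Of the 9 genes, Egfl7 was not lower in PC on average (7.87 against 7.19 CPM). The macrophage sums, 21.6, 8.35 and 50.9 CPM in PC against 136, 383 and 646 CPM in RACM, ranked all libraries as Plxnd1 did. The part of either cell type in the Plxnd1 values was not tested.

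Nrp1, the neuropilin that binds Sema3a and VEGF, lies on chr8:128358604-128503363 (ENSMUSG00000025810, plus strand). It had 81.4, 97.3 and 101 CPM in PC, against 53.9, 53.7 and 73.1 CPM in RACM. Each PC library was above each RACM library, with means of 93.1 ± 10.3 CPM in PC and 60.2 ± 11.1 CPM in RACM (SD, n = 3 each). The log2 fold change of 0.63 ± 0.18 did not pass (edgeR adjusted p = 0.076), with a 95% interval from 0.22 to 1.04, and with the replicate block it passed at 0.64 (edgeR adjusted p = 0.0296). Endothelial and endocardial sums were lower in PC, unlike Nrp1. Smooth muscle and pericyte sums were higher in PC on average and highest in p4 in both cell types, as Nrp1 was. Unlike Nrp1, they were lowest within PC in p2, and Acta2 made up most of the PC sums. Of those 8 genes, 4 were higher in every PC library and 3 in every RACM library, namely Pdgfrb, Rgs5 and Kcnj8. The part of other cells in the Nrp1 values was not tested. A share of 0.818% of the Nrp1 exon bases also belongs to the microRNA gene Mir1903.

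Nrp2, the neuropilin of Sema3f, Sema3c and the lymphatic factor VEGF-C, lies on chr1:62703285-62818695 (ENSMUSG00000025969, plus strand). It had 3.95, 1.13 and 9.14 CPM in PC, against 4.55, 13.8 and 17.7 CPM in RACM. PC p4 lay above RACM p0, so the groups overlapped, and the spread within each cell type was wide. The log2 fold change of -1.34 ± 0.71 did not pass (edgeR adjusted p = 0.337), nor did it with the replicate block (edgeR adjusted p = 0.185). The 95% interval ran from -2.95 to 0.27, so the data do not set its size closely. Of 4 lymphatic endothelial markers, Lyve1 was lower and Pdpn higher in PC. The 4 summed to 272, 276 and 230 CPM in PC, against 263, 255 and 247 CPM in RACM, mostly from Prox1, a gene that heart muscle also expresses. Within each cell type, the macrophage sums ranked the libraries as Nrp2 did, and the fibroblast sums did so in RACM only. Lyve1 rose with both sums in RACM, with 12.1, 16.9 and 75.3 CPM. The part of other cells in the Nrp2 values was not tested.

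Levels were compared between genes after division by exon length, as CPM per kilobase. In PC the order was Plxna4 (13.9), Nrp1 (9.51), Plxna2 (6.83), Sema5a (5.45), Sema3c (2.93), Plxnd1 (1.6), Sema3a (0.924), Sema3d (0.493), Nrp2 (0.400) and Sema3e (0.0520), each a mean level in CPM per kilobase. Neighbours in that order did not overlap for Plxna4 and Nrp1, Nrp1 and Plxna2, and Sema5a and Sema3c, while the other neighbours overlapped over their 3 libraries. In RACM the mean levels per kilobase were Plxna4 (13.0), Sema5a (10.7), Nrp1 (6.16), Plxnd1 (3.72), Plxna2 (3.38), Sema3a (1.17), Nrp2 (1.02), Sema3d (0.717), Sema3c (0.407) and Sema3e (0.00345). There the neighbours that did not overlap were Sema5a and Nrp1, Nrp1 and Plxnd1, Plxna2 and Sema3a, and Sema3c and Sema3e. Plxna4 had the highest mean of the 10 in both cell types, though in RACM its libraries overlapped those of Sema5a, and Sema3c was the fifth of the 10 in PC and the ninth in RACM.

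Sema3c led the secreted ligands in every PC library and in no RACM library. It made up 48.9%, 46.9% and 62.4% of the summed class 3 level per kilobase in PC, against 2.25%, 8.61% and 20.2% in RACM. The summed level of all 7 class 3 genes was 4.83, 6.16 and 5.68 CPM per kilobase in PC, against 3.44, 4.47 and 3.76 in RACM. Sema3a, with 41.7%, 28.8% and 21.1%, held the largest share in RACM p0 and p2, while Sema3d with 30.5% held it in RACM p4. These shares are descriptions, since an exact permutation test gives no p below 0.1 for 3 libraries of each cell type.

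Among the 9 plexins, Plxna2 took 15.1%, 15.6% and 14.9% of the summed level per kilobase in PC, against 7.44%, 6.70% and 5.63% in RACM. The summed plexin level was 45.9, 45.5 and 43.4 CPM per kilobase in PC and 48.3, 54.8 and 51.0 in RACM. The larger shares belonged to Plxna4, with 29.7%, 35.1% and 28.1% in PC against 24.9%, 29.3% and 21.4% in RACM, and to Plxnb2, with 30.3%, 24.9% and 30.3% in PC against 37.7%, 34.5% and 35.9% in RACM. Nrp1 outweighed Nrp2 in both cell types, with 96.1%, 99.1% and 93.0% of the neuropilin level in PC, against 93.5%, 82.4% and 83.4% in RACM.

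**Figure D3:**
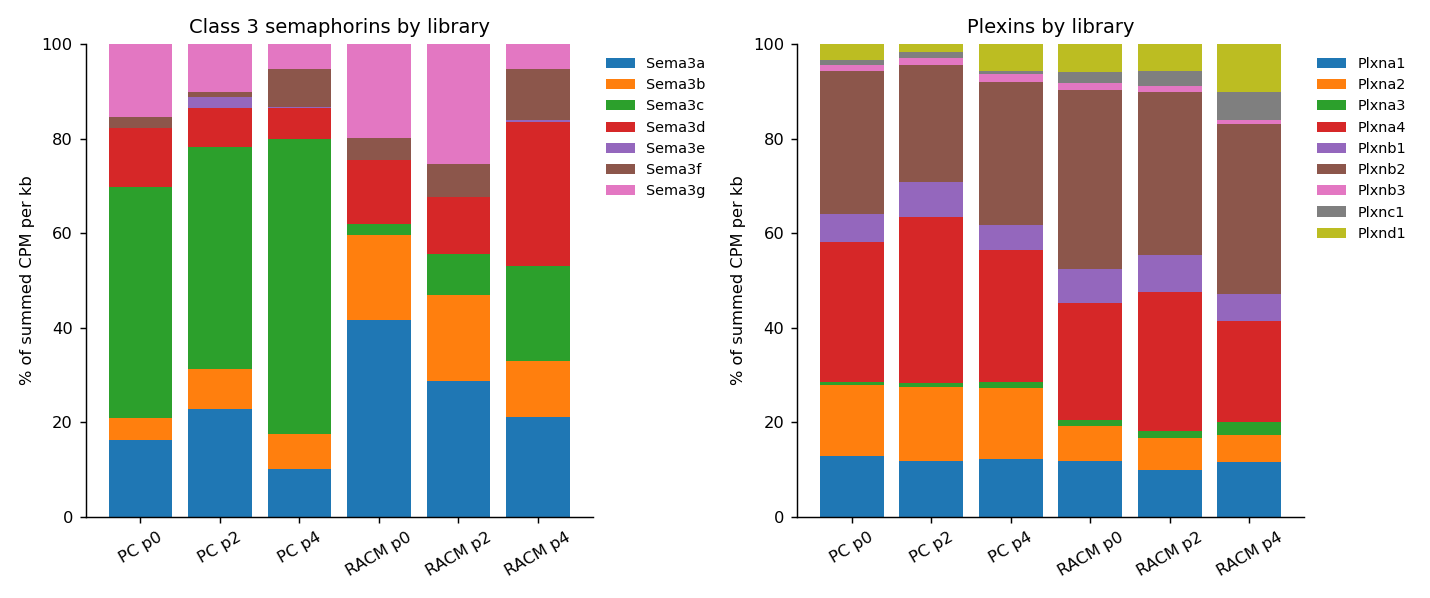
Shares of the class 3 semaphorins (left) and of the plexins (right) in their summed level per kilobase of exon, in percent, 1 bar per library. The Sema3c share lies between 46.9% and 62.4% in PC and between 2.25% and 20.2% in RACM, and the Plxna2 share between 14.9% and 15.6% in PC and between 5.63% and 7.44% in RACM.

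The p numbers were compared across both cell types by an F test in edgeR, with cell type in the model and 1 library of each cell type per number. Of the 9 members tested, 0 were called (edgeR adjusted p from 0.331 to 0.885), and 3 had an unadjusted p below 0.05, namely Plxnd1, Plxna4 and Sema3a. The share of all genes at that unadjusted p was not counted, so no excess can be read from these 3. Over all genes tested, 0.00555% were called. Plxnd1 was highest in p4 and Sema3a lowest in p4 in both cell types. As the labels do not explain the number, its meaning is not stated here.

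In the rest of the family, 19 of 21 genes were tested, 1 was higher and 1 lower in PC, and the median log2 fold change was -0.45. The gene that was higher, Sema7a, encodes a semaphorin anchored to the membrane by a lipid, and the lower one, Plxnc1, encodes its plexin receptor. Sema7a had 6.73, 7.28 and 4.85 CPM in PC, against 1.52, 1.91 and 2.30 CPM in RACM, without overlap. Its log2 fold change was 1.71 ± 0.43 (edgeR adjusted p = 0.0449), a call lost with upper-quartile scaling (edgeR adjusted p = 0.052), with limma-voom (limma adjusted p = 0.0577) and with any 1 library left out (edgeR adjusted p from 0.0507 to 0.165) or both p4 libraries (edgeR adjusted p = 0.0853).

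Plxnc1 had 4.0, 4.57 and 2.26 CPM in PC, against 9.92, 14.2 and 24.8 CPM in RACM, and its log2 fold change was -2.18 ± 0.43 (edgeR adjusted p = 0.0193). Its call was lost without RACM p2, RACM p4, PC p0 or PC p4 (edgeR adjusted p = 0.06, 0.0707, 0.0704 and 0.0506) and without both p4 libraries (log2 fold change -1.52, edgeR adjusted p = 0.0932). It was highest in RACM p4, as were the macrophage sums, whose part in it was not tested. Of all 20 semaphorin ligands, 17 were tested, 2 were higher (Sema3c and Sema7a) and 1 was lower (Sema5a). Of the 11 plexins and neuropilins, all were tested, 1 was higher (Plxna2) and 1 lower (Plxnc1).

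By mean level per kilobase, the highest ligand was Sema6d in PC (7.48 CPM per kilobase) and Sema5a in RACM. In RACM their libraries overlapped, and in p0 Sema6d was above Sema5a (11.7 against 9.50 CPM per kilobase). Sema6d, a membrane-held ligand of plexin A1, had 89.4, 67.2 and 80.3 CPM in PC, against 123, 95.2 and 96.1 CPM in RACM, and its log2 fold change of -0.41 ± 0.18 did not pass (edgeR adjusted p = 0.229). The highest receptor by mean was Plxna4 in PC and Plxnb2, a receptor of class 4 ligands, in RACM (18.5 CPM per kilobase). In PC their libraries overlapped, and Plxnb2 was above Plxna4 in p0 (13.91 against 13.63 CPM per kilobase) and in p4 (13.15 against 12.18). Plxnb2 had 107, 87.5 and 102 CPM in PC, against 141, 146 and 142 CPM in RACM. Its libraries did not overlap, and its log2 fold change of -0.53 ± 0.15 passed with the replicate block (edgeR adjusted p = 0.0406) but not without it (edgeR adjusted p = 0.0651).

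Proteins that work with these receptors at the membrane formed a list of 13 genes, of which 12 were tested, 1 was higher, 1 was lower and the median log2 fold change was 0.08. Cntn2, a contactin adhesion molecule that marks the conduction system, had 44.9, 38.9 and 86.9 CPM in PC, against 2.27, 2.39 and 3.26 CPM in RACM. Its log2 fold change of 4.42 ± 0.37 was the largest of the list (edgeR adjusted p = 0.00028). Ptk7, a receptor-like pseudokinase known from planar cell polarity, had 3.84, 3.84 and 2.36 CPM in PC, against 10.3, 23.8 and 16.4 CPM in RACM. Its log2 fold change was -2.33 ± 0.39 (edgeR adjusted p = 0.00964), a call lost without RACM p2 (edgeR adjusted p = 0.0581). Itgb1, the integrin chain that also binds Sema7a, had the highest level of the list per kilobase, 87.6 CPM per kilobase in PC and 101 in RACM, and did not pass (log2 fold change -0.21 ± 0.16, edgeR adjusted p = 0.543).

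Of 22 effectors inside the cell, among them collapsin response mediators, MICAL enzymes and kinases, 20 were tested, 0 were higher and 2 were lower in PC, with a median log2 fold change of -0.01. At an unadjusted p below 0.05, 2 were higher and 3 lower by edgeR, and with adjusted p 1 was higher by DESeq2 and 0 by limma-voom. The share of all genes at that unadjusted p was not counted, so no excess can be read from these counts. Fyn, a Src family kinase that acts below Sema3a and plexin A2, had 11.6, 9.42 and 9.05 CPM in PC, against 27.8, 32.6 and 42.4 CPM in RACM. The log2 fold change of Fyn was -1.78 ± 0.24 (edgeR adjusted p = 0.00313). Pak1, a kinase that Rac activates, had 0.334, 0 and 0.566 CPM in PC, against 3.10, 3.52 and 7.44 CPM in RACM, so the fold change of -3.91 ± 0.95 on the log2 scale rests on few PC counts (edgeR adjusted p = 0.0406). The Pak1 call was lost without PC p0, RACM p0, RACM p2 or RACM p4 (edgeR adjusted p = 0.122, 0.0584, 0.107 and 0.149), without both p4 libraries (edgeR adjusted p = 0.101) and with limma-voom (limma adjusted p = 0.0602). Without PC p4 its log2 fold change was -4.75, and it was called. Both Fyn and Pak1 were highest in RACM p4 and lower in every PC library, as were the macrophage sums, whose part in these differences was not tested. Dpysl3, a collapsin response mediator, had the highest level of the list per kilobase, 63.0 CPM per kilobase in PC and 69.4 in RACM, and did not pass (log2 fold change -0.14 ± 0.16, edgeR adjusted p = 0.703).

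Semaphorin genes are also expressed outside muscle, and markers of other cells were therefore set beside them. Of 8 fibroblast markers 1 was called lower in PC, and of 8 macrophage markers 6 were. With the replicate block these counts were 6 of 8 and 8 of 8, while 3 of 9 endothelial and endocardial markers were called lower and 2 of 5 general heart muscle markers higher in PC. Sema5a, Sema3d, Nrp2, Plxnd1 and Plxnc1 were highest in RACM p4, the library with the highest sums of both lists, while Plxna2 and Plxna4 were lowest there. Neuron markers summed to 140, 97.3 and 113 CPM in PC, against 12.7, 10.0 and 9.89 CPM in RACM. Uchl1 made up almost all of the PC sums, while the neuronal genes Snap25, Stmn2 and Prph were each below 1 CPM in every library. Others of that list were not: Elavl4 had 4.06, 3.22 and 1.37 CPM in PC, against 6.41, 3.82 and 2.45 CPM in RACM. Tubb3 reached 1.23 CPM in PC p4 and 1.15 CPM in RACM p4. Schwann cell markers summed to 14.9, 17.7 and 16.2 CPM in PC and 20.3, 15.3 and 15.9 CPM in RACM, and Foxd3 stayed below 0.1 CPM in every library. Of the smooth muscle and pericyte markers, 3 of 8 were called higher and 1 lower in PC, and 4 and 3 with the replicate block. Epicardial markers summed to 119, 112 and 88.8 CPM in PC and 23.3, 35.4 and 124 CPM in RACM, most of the PC sum from Tbx18, which also marks the sinoatrial node. The part of these cells in the values given above was not tested.

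**Figure D4:**
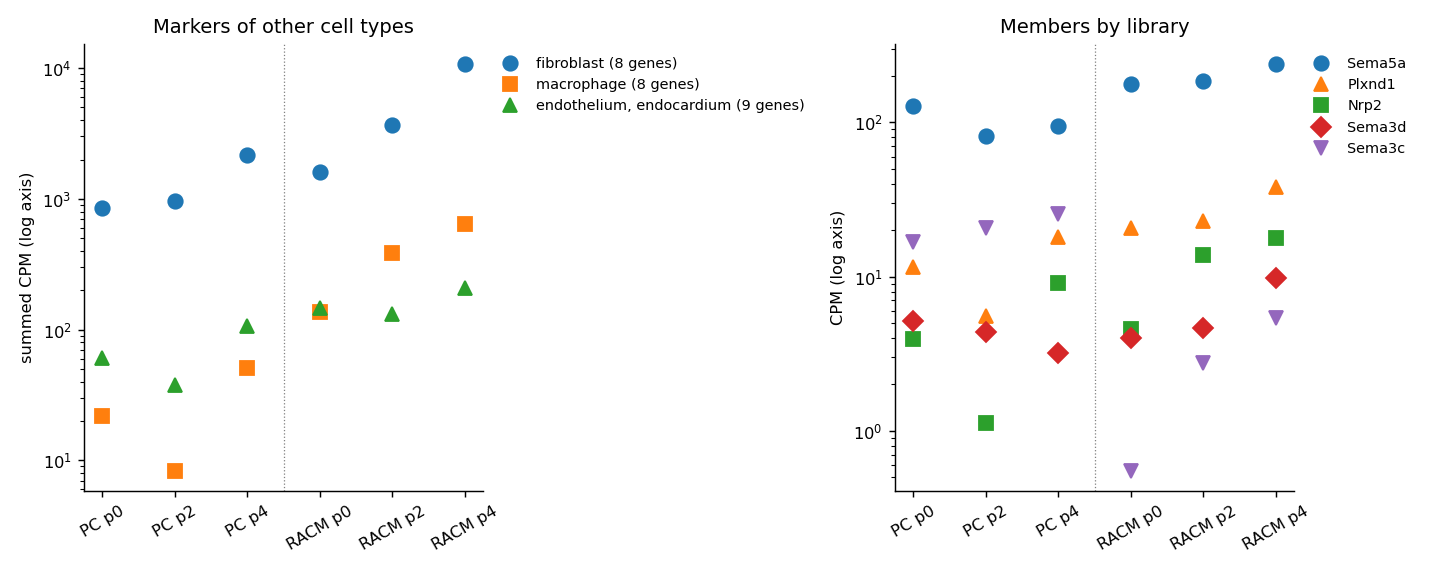
Left, summed CPM of fibroblast, macrophage and endothelial marker genes in each library (log axis). Right, CPM of Sema5a, Plxnd1, Nrp2, Sema3d and Sema3c in the same libraries (log axis); the fibroblast and macrophage sums and all 5 genes but Sema3c are highest in RACM p4, and Sema3c is highest in PC p4.

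Genes whose log2 level across the 6 libraries was most like that of the called member with the largest positive and the largest negative fold change were looked up among 9282 genes averaging at least 10 CPM. For Sema3c they were Nrbp2, Igf1 and Cenpb, with Pearson correlations of 0.995, 0.995 and 0.994. Igf1, an insulin-like growth factor gene, averaged 168 CPM in PC, against 55.8 CPM in RACM, while Nrbp2 differed far less, with 45.9 CPM in PC against 33.4 CPM in RACM. For Sema5a they were Kdelc2, Csgalnact2 and Ecm1, with correlations of 0.997, 0.996 and 0.995, and Ecm1, which encodes a matrix protein, averaged 11.7 CPM in PC, against 38.8 CPM in RACM. With 6 libraries that share cell types and p numbers, so high a correlation is a description of the pattern, given with no test.

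**Figure D5:**
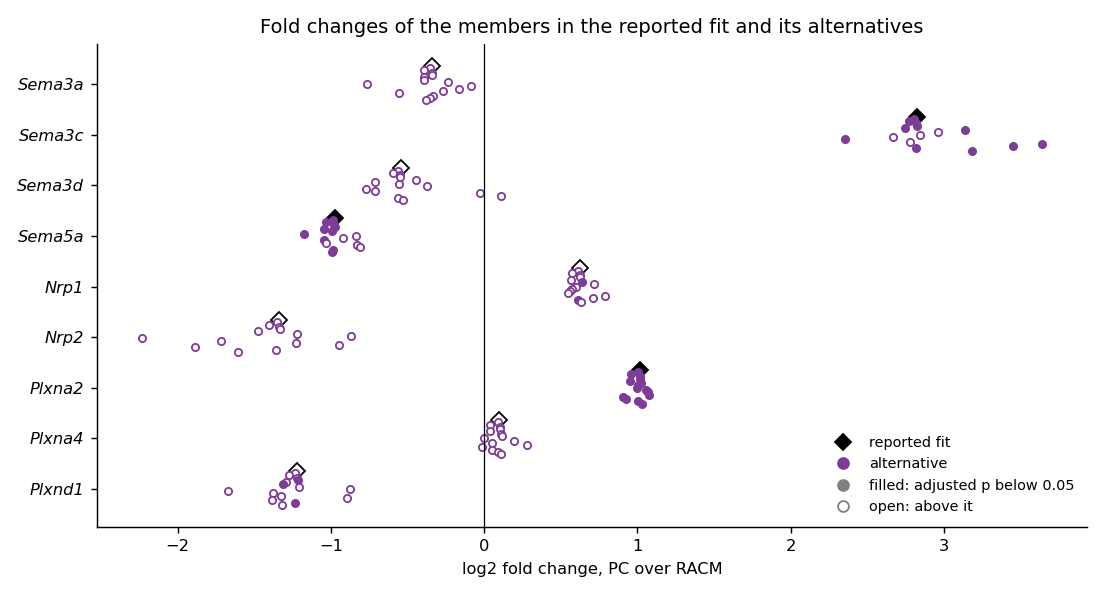
Log2 fold changes of PC over RACM for the 9 members tested, as reported (diamonds) and under the alternative settings (circles), filled where the adjusted p was below 0.05. Plxna2 is filled under every setting, Sema3c under 11 and Sema5a under 10 of 15, and 2 members reach the other side of 0, Plxna4 without RACM p4 and Sema3d without both p4 libraries.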

How the data were processed

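RNA of PC and RACM was sequenced in 3 libraries of each. Per the labels' protocols, RNA was amplified with the Ovation RNA-Seq V2 system and read as 100-bp pairs. The deposited values are raw fragment counts for each gene over mm10 exons, made by the authors with featureCounts 2.0.1 without a strand option, per the file headers. Trimmomatic, HISAT2 and edgeR are named without versions in the submitters' processing notes.

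Of 55487 gene IDs, 55141 matched a symbol. The filter filterByExpr, given the cell type, a minimum count of 10 and a minimum total of 15, kept 18015 genes for testing. TMM scaling and the 2-sided quasi-likelihood test (glmQLFTest after glmQLFit) were run in edgeR 4.0.16 under R 4.3.3. Benjamini-Hochberg adjusted p below 0.05 made a call. CPM used TMM-scaled library sizes, and CPM per kilobase used the exon length in the table. The p number was tested by an F test with cell type in the model. A row related to ribosomal RNA, CT010467.1, took from 9.60% to 13.9% of counts and was kept except in 1 alternative. Intervals on ratios of counts are exact at 95% and cover counting error only.

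The members and gene lists were chosen with earlier results of these data known. Named genes are the members, every called gene of the lists, the highest gene per kilobase of each list in each cell type, and the genes of most similar pattern. Marker genes, Snhg18 and the genes of the closing observations were named outside that rule, after their values were seen. Deviations from the cell type means correlated by 0.156 (p0), 0.234 (p2) and 0.237 (p4). On that evidence alone, since no label pairs the libraries, the replicate block was run as an alternative. The reported fit has no block. Replicates differed by more than counting noise (chi-square over its degrees of freedom from 29.0 to 74.7). The labels call each pool a biological replicate. Alternatives were RLE and upper-quartile scaling, 2 other filters, the block, each library and both p4 libraries left out, the ribosomal row left out, DESeq2 1.42.0 and limma-voom (limma 3.58.1). The steps were tested on simulated data. Promoters came from RefSeq in GRCm38.p6.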

Additional observations from a re-analysis of the deposited data

How the results depend on the processing

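Over all genes, 1309 calls became 2339 with no filter, 2082 with the replicate block, 734 without both p4 libraries and 2304 by DESeq2, and lay between 511 and 1338 with 1 library left out. Members called lower in PC, 1 as reported, numbered 2 with no filter, with the replicate block and by DESeq2, and 0 without both p4 libraries. With 1 library left out, from 1 to 2 members were called higher and from 0 to 1 lower. The replicate block changed no member's call other than those of Nrp1 and Plxnd1. By DESeq2 these 2 passed as well (adjusted p = 0.0377 and 0.033), and Plxnd1 passed with no filter (edgeR adjusted p = 0.0115). The sign of Plxna4 reversed without RACM p4 (-0.0117, up to 0.2782 with other libraries left out) and that of Sema3d without both p4 libraries (0.1115), neither called in any setting. For the p number, 57 genes were called under the 5 CPM filter, against 1 as reported, and the p4 over p0 log2 fold change of Sema5a reversed to 0.0447 there. Sema3d, Nrp2, Sema7a and Pak1 were not tested under that filter. The causes were not tested, except that leaving out libraries leaves fewer samples. Plxna2, Cntn2 and Fyn were called in all 15 settings. The median log2 fold change of all genes was 0.0064 with TMM, -0.0062 with RLE and -0.0484 with upper-quartile scaling. With totals of at least 14141151, low counts in too many libraries kept Sema3e, Sema4f, Sema5b, Chl1, Dpysl4 and Crmp1 out of the test. Of these, Sema5b was uneven within PC, with 66, 53 and 1 counts, against 3, 6 and 9 in RACM, and Chl1 had 58 counts in PC p4. Low counts also limited Pak1, L1cam and the RACM level of Sema3c.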

Other observations

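The 4 class 3 members Sema3d, Sema3a, Sema3e and Sema3c lie on the plus strand of chromosome 5 within 5.347 Mb, in a stretch of 77 gene IDs of which 14 were tested and 2 called. The genes below were picked after their values were seen, for their position in that stretch. Besides Sema3c, the called gene was Pclo, which encodes the presynaptic scaffold piccolo. It averaged 37.5 CPM in PC, against 4.74 CPM in RACM, and passed the test (log2 fold change 2.99 ± 0.32, edgeR adjusted p = 0.00109). Hgf, the growth factor that activates Met, a partner of B-type plexins, averaged 15.9 CPM in PC and 4.39 CPM in RACM. Hgf lay just outside the threshold (log2 fold change 1.85 ± 0.48, edgeR adjusted p = 0.0503). Met itself lay between 0.564 and 2.00 CPM in PC and between 0.827 and 1.25 CPM in RACM.

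Among the VEGF partners of the neuropilins, Vegfa had 138, 165 and 160 CPM in PC, against 119, 104 and 95.05 CPM in RACM. Its libraries did not overlap, and its log2 fold change of 0.54 ± 0.16 did not pass (edgeR adjusted p = 0.0786). Kdr, the main VEGF receptor of endothelium, had 35.9, 18.5 and 32.1 CPM in PC, against 15.5, 23.0 and 20.6 CPM in RACM, with overlap (edgeR adjusted p = 0.316).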
